A study of Mus musculus with 6 samples.

Results

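The 10 genes described here mark the crypt base or respond to Wnt signalling in intestinal epithelium, and were measured in mouse colon: Lgr5, Ascl2, Olfm4, Smoc2, Axin2, Rnf43, Znrf3, Sox9, Ephb2 and Ephb3. They were taken by gene name from the deposited table, where each name matched 1 row, so 10 of 54532 genes are covered. Colon RNA came from C57BL/6 mice aged 56 days, with 3 libraries labelled IL10-/- and 3 labelled wild type (WT). Il10 encodes an anti-inflammatory cytokine, and its loss in mice is a common model of colitis. The sources used here give neither the allele nor whether animals were pooled. Libraries are called by their labels, because Il10 RNA was at 13.8, 10.6 and 14.5 FPKM in the 3 knockout-labelled libraries and at 0.757, 0.173 and 0.177 FPKM in the WT libraries. Il10 RNA was thus higher in the knockout-labelled libraries. The reads cover the whole gene and do not test the deleted part, so every direction below rests on the labels. FPKM are fragments scaled by gene length and library size. Reads recovered from them, summed over genes, numbered 13107941 to 15797928 per library. Separate animals are not stated, so p-values describe spread among libraries that may be technical.

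Intestinal crypts hold stem cells at their base, kept dividing by Wnt ligands and by R-spondins. Lgr5 is an R-spondin receptor; R-spondin bound to it draws away Rnf43 and Znrf3, which otherwise clear Wnt receptors from the cell surface. Axin2, Rnf43 and Znrf3 are raised by Wnt signalling and restrain it, forming negative feedback. Ascl2 and Sox9 are transcription factors of the lower crypt, Olfm4 and Smoc2 encode secreted proteins of stem cells, and Ephb2 and Ephb3 are receptors for ephrin-B ligands that hold cells in place along the crypt. As cells move to the surface they lose this programme and become absorptive colonocytes or goblet cells.

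All 10 genes are protein-coding, and their positions in the table were identical to GENCODE M21, so coordinates are GRCm38. Lgr5 (ENSMUSG00000020140) lies on chromosome 10 from 115450311 to 115587780, minus strand. Ascl2 (ENSMUSG00000009248) lies on chromosome 7 from 142966829 to 142969264, minus strand. Ephb2 (ENSMUSG00000028664) lies on chromosome 4 from 136647539 to 136835988, minus strand. Ephb3 (ENSMUSG00000005958) is on chromosome 16 from 21204755 to 21223305, plus strand, Smoc2 (ENSMUSG00000023886) on chromosome 17 from 14279506 to 14404790, plus strand, and Olfm4 (ENSMUSG00000022026) on chromosome 14 from 79984081 to 80023139, plus strand. Chromosome 11 holds the other 4. Axin2 (ENSMUSG00000000142) spans 108920349 to 108950783 and Rnf43 (ENSMUSG00000034177) spans 87662722 to 87735539, both on the plus strand. Sox9 (ENSMUSG00000000567) spans 112782224 to 112787760 on the plus strand, and Znrf3 (ENSMUSG00000041961) spans 5276324 to 5444847 on the minus strand. RefSeq promoter windows (GRCm38.p6) were found for 6 of the 10, and 3 of these genes are shown: Ascl2, Axin2 and Ephb2. Ascl2 had the lowest and Ephb2 the highest log2 fold change of the 10. The 250 bases before each of these 3 start sites are printed 5′ to 3′ on the gene's strand, with CCAAT boxes (CCAAT or its reverse complement ATTGG) in capitals.
Ascl2, chr7:142969265-142969514, minus strand: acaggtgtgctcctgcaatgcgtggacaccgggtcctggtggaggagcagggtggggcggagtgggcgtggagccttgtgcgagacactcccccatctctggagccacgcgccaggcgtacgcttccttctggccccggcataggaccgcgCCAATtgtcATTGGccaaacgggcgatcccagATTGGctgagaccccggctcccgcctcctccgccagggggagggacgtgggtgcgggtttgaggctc
Axin2, chr11:108920099-108920348, plus strand: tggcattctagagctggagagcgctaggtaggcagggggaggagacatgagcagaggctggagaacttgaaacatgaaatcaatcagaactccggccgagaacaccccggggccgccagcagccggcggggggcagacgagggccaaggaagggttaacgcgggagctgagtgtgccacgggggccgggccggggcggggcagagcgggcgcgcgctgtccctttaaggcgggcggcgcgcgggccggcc
Ephb2, chr4:136836013-136836262, minus strand: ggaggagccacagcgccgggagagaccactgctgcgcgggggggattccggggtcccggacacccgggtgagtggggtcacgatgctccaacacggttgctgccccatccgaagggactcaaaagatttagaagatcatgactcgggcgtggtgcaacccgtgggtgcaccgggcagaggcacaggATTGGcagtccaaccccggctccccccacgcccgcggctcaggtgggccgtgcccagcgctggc
Ascl2 has 3 CCAAT boxes, 99, 90 and 67 bases before its start site, and at least that many occur in 2.79% of the 32851 promoter windows of the same length. Ephb2 has 1, 64 bases before its start site, and 33.8% of windows hold at least 1, whereas Axin2 has none. Letters of the TCF/LEF motif, through which Wnt signalling acts on genes, were searched on both strands as CTTTG followed by 2 letters that are each A or T. They were in 0 of the 7 windows of these 6 genes, against 14.8% of all windows, which says only that these letters are not in the bases searched.

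None of the 10 genes passed the test between the knockout-labelled and WT libraries. In FPKM as deposited, 2 of them, Ephb2 and Rnf43, were higher in every knockout-labelled library than in every WT library. A mean of at least 1 FPKM was reached by 7 genes, which entered the fit of 12668 genes (limma on log2(FPKM + 1), Benjamini-Hochberg adjustment, threshold 0.05). Of these 7, 0 were called by limma, against 0.182% of all genes tested. Their adjusted p lay between 0.431 and 0.969. One of the 7, Ephb2, had an unadjusted p under 0.05, against 6.14% of all genes in the higher direction and 4.03% in the lower one, and voom on the recovered reads also called 0. Knockout-labelled libraries lay wholly above WT for 2 of the 7 and wholly below for 0, against 8.84% and 7.89% of all genes. That separation depends on the scaling. FPKM summed over genes were 587021 in knockout-labelled library 1 and 405914 in WT library 1. Divided by these sums, as in TPM, both Ephb2 and Rnf43 were lower in knockout-labelled library 1 than in WT library 1. The median log2 fold change of the 7 was -0.09, with 3 positive and 4 negative, against 0.04 for all genes tested, of which 54.1% were positive. Lgr5, Znrf3 and Olfm4 averaged under 1 FPKM; Lgr5 and Znrf3 were read from a fit of 19903 genes with a mean of at least 0.1 FPKM, where 0.0955% of genes were called.

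**Figure D1:**
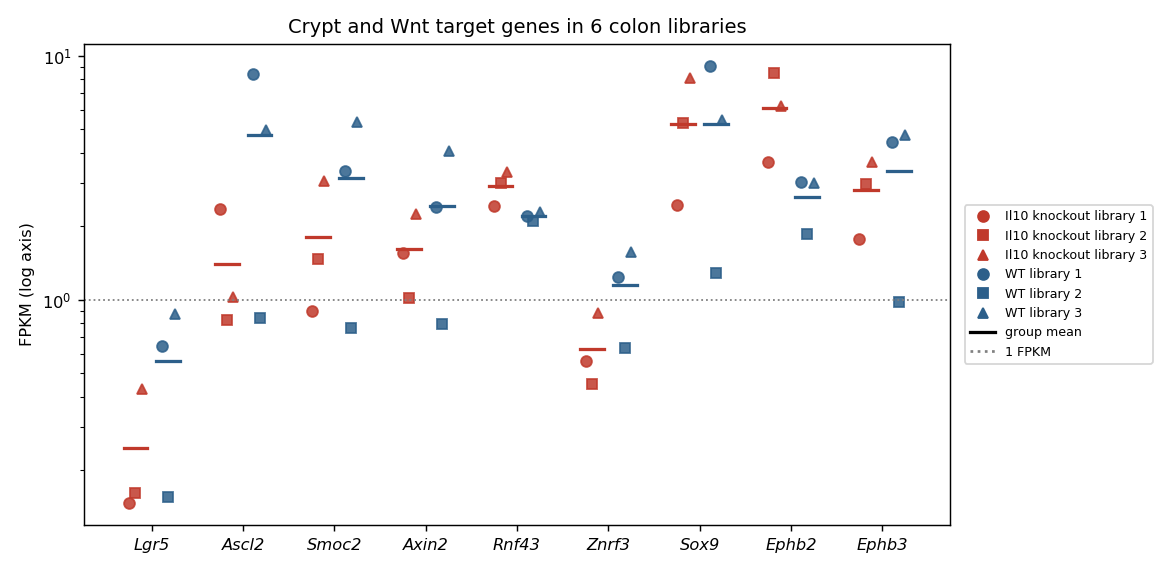
FPKM of 9 genes (log axis) in each knockout-labelled library (red) and WT library (blue), with group means as bars and a dotted line at 1 FPKM; Olfm4, at 0 in 5 of 6 libraries, is not drawn. WT library 2 (blue squares) is the lowest WT point for every gene, and Ephb2 and Rnf43 are the genes whose groups do not overlap.

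Levels per length spanned a wide range, with the same genes at the bottom in both groups. In the knockout-labelled libraries Ephb2 had the highest mean level (6.11 FPKM), followed by Sox9 (5.27), Rnf43 (2.92), Ephb3 (2.80), Smoc2 (1.81), Axin2 (1.61), Ascl2 (1.40), Znrf3 (0.630), Lgr5 (0.246) and Olfm4 (0.0345). In WT the order was Sox9 (5.27 FPKM), Ascl2 (4.75), Ephb3 (3.38), Smoc2 (3.15), Ephb2 (2.64), Axin2 (2.42), Rnf43 (2.20), Znrf3 (1.14), Lgr5 (0.558) and Olfm4 (0). Neighbours in these orders overlapped between libraries, except that Znrf3 lay above Lgr5 in the knockout-labelled libraries, Rnf43 above Znrf3 in WT, and Lgr5 above Olfm4 in both. Within every single library Znrf3, Lgr5 and Olfm4 held ranks 8, 9 and 10.

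Lgr5, the R-spondin receptor, was scarce in whole colon. It was at 0.147, 0.161 and 0.430 FPKM in knockout-labelled libraries 1 to 3 and at 0.646, 0.155 and 0.874 FPKM in WT libraries 1 to 3. WT libraries 1 and 3 were above all knockout-labelled libraries, WT library 2 lay between knockout-labelled libraries 1 and 2, and the groups overlapped. The values rested on 117 reads over the knockout-labelled group and 244 over WT. The 21 reads of WT library 2 carry an exact Poisson 95% interval of 12.999 to 32.1 reads, against 95.9 to 139 for the 116 reads of WT library 3, so these 2 libraries differ beyond counting error. The log2 fold change was -0.30 (SE 0.22, adjusted p = 0.692), and the ratio of group means without a pseudocount was 0.440. In bulk RNA, fewer stem cells and less Lgr5 RNA per cell cannot be told apart, and the same holds for every gene below.

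Ascl2, a basic helix-loop-helix factor that sets stem cell identity together with Wnt signalling, had the lowest log2 fold change of the 10. It was at 2.34, 0.823 and 1.02 FPKM in knockout-labelled libraries 1 to 3 and at 8.44, 0.840 and 4.96 FPKM in WT libraries 1 to 3. WT thus held the 2 highest values and, in library 2, the second lowest of the 6. Group means were 1.40 ± 0.827 FPKM and 4.75 ± 3.80 FPKM in knockout-labelled and WT libraries (SD, n = 3 each). The log2 fold change was -1.02 (SE 0.60, 95% interval -2.46 to 0.41, adjusted p = 0.619). Without WT library 2 it was -1.70 (adjusted p = 0.117), and with a weight per library it was -1.93 (adjusted p = 0.0491), the only alternative in which any of the 10 genes was called. That weighted fit gave WT libraries 1, 2 and 3 weights of 2.76, 0.198 and 0.465 and called 2.61% of all genes (1.87% higher and 0.742% lower). The follicular helper subset of T cells also carries Ascl2. Markers of T and NK cells had list means of 2.10 to 2.30 on the log2 scale in knockout-labelled libraries. In WT libraries 1 to 3 the list means were 2.64, 1.63 and 1.21. WT library 1 was thus the highest for both, while WT library 3, with the second highest Ascl2 value, had the lowest list mean. The listed genes Icos, Cxcr5 and Pdcd1 averaged under 1 FPKM and are not in these means. This list's part in the Ascl2 values was not tested.

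Smoc2, a secreted calcium-binding matrix protein, was at 0.900, 1.46 and 3.07 FPKM in knockout-labelled libraries 1 to 3 and at 3.37, 0.763 and 5.33 FPKM in WT libraries 1 to 3. The groups overlapped across their whole width, with WT library 3 highest and WT library 2 lowest. Its log2 fold change was -0.45 (SE 0.52, adjusted p = 0.818), and -0.06 without WT library 3. Stromal cells can also carry Smoc2, and the 13 tested fibroblast markers had a list mean of 2.95 to 3.58 in knockout-labelled libraries and of 3.37 to 4.85 in WT, highest in WT library 3; their part in the Smoc2 values was not tested.

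Sox9, an HMG-box factor of crypt progenitors, was at 2.43, 5.27 and 8.10 FPKM in knockout-labelled libraries 1 to 3 and at 9.08, 1.28 and 5.45 FPKM in WT libraries 1 to 3. Both groups averaged 5.27 FPKM, with SDs of 2.83 and 3.90 FPKM in knockout-labelled and WT libraries (n = 3 each), and they overlapped. The log2 fold change of 0.13 has a 95% interval of -1.30 to 1.57, so differences of more than a doubling in either direction are not excluded by these libraries. Its sign depended on the libraries and the scaling used, as given under the processing.

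Olfm4 is a stem cell marker of the small intestine in mice and is also carried by neutrophils. It had 5 reads in knockout-labelled library 3 (0.104 FPKM) and 0 reads in the other 5 libraries, which allows up to 0.0802 FPKM, the value of 3 reads, in the least sensitive of them. No fold is given, since all but 1 library were at 0. Of 17 listed neutrophil genes, 12 had a mean of at least 1 FPKM, while Trem1, Ngp, Camp, Elane and Mpo were below it. The mean log2 level of the 12 was 3.64, 4.69 and 4.29 in knockout-labelled libraries 1 to 3 and 1.008, 0.33 and 0.72 in WT libraries 1 to 3. S100a8, a subunit of calprotectin, was at 1153, 671 and 282 FPKM in knockout-labelled libraries and at 0.0893, 0 and 0.223 FPKM in WT libraries. Markers differed in knockout-labelled library 3, the one with Olfm4 reads. Within that group S100a8 and S100a9 (225 FPKM) were lowest in library 3. Retnlg was highest in it, at 7.08, 33.6 and 42.8 FPKM in knockout-labelled libraries 1 to 3, and the list mean was lowest in library 1. The part of neutrophils in the Olfm4 reads was not tested. Of 14 listed Paneth and small intestinal genes, 4 (Apoa4, Defa17, Defa24 and Defa30) had 0 reads in all 6 libraries and 5 had a mean of at least 1 FPKM. Among those 5, Fabp6, an ileal bile acid binding protein, was at 12.9, 1.19 and 1.28 FPKM in knockout-labelled libraries and at 9.83, 0.158 and 0.646 FPKM in WT libraries. Apob, an apolipoprotein, was at 4.74, 2.35 and 1.78 FPKM in knockout-labelled libraries and at 4.20, 12.4 and 0.705 FPKM in WT libraries.

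Of the 3 negative regulators of Wnt signalling, Rnf43 had a higher mean in the knockout-labelled libraries, and Axin2 and Znrf3 had lower ones. Axin2, a scaffold of the complex that degrades beta-catenin and a widely used Wnt target, was at 1.55, 1.02 and 2.25 FPKM in knockout-labelled libraries 1 to 3 and at 2.40, 0.798 and 4.08 FPKM in WT libraries 1 to 3. WT library 3 was the highest, WT library 2 the lowest, and the knockout-labelled values all lay between them. The log2 fold change was -0.30 (SE 0.41, adjusted p = 0.851), and 0.05 without WT library 3.

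Rnf43, a ubiquitin ligase that removes Wnt receptors, was at 2.42, 3.02 and 3.33 FPKM in knockout-labelled libraries 1 to 3 and at 2.21, 2.10 and 2.28 FPKM in WT libraries 1 to 3. It was the steadiest within WT of the 9 genes with reads in every library, the highest WT value being 1.08 times the lowest. Each knockout-labelled value was above each WT value, but knockout-labelled library 1 (2.42 FPKM) and WT library 3 (2.28 FPKM) did not differ beyond counting error. They had 200 and 193 Rnf43 reads, with exact Poisson intervals of 173 to 230 and 167 to 222 reads. The library sizes implied by the step were similar, at 12622500 and 12924400. The non-overlap thus rests on a gap within counting error. The log2 fold change was 0.29 (SE 0.20, adjusted p = 0.667), and an exact two-sided permutation test gave p = 0.1, the smallest that 3 against 3 libraries allow. Its sense intronic neighbour 1110028F11Rik, at a mean of 0.399 FPKM, lies within the gene, and no source used here says how shared reads were counted or whether strand was used. The same limit holds for Axin2, Lgr5 and Smoc2, which overlap genes on the opposite strand at means of 0.0404, 0.0102 and 0.153 FPKM.

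Znrf3, the paralog of Rnf43 with the same role, was at 0.562, 0.451 and 0.878 FPKM in knockout-labelled libraries 1 to 3 and at 1.23, 0.633 and 1.57 FPKM in WT libraries 1 to 3. The groups overlapped through WT library 2, and the log2 fold change was -0.38 (SE 0.24, adjusted p = 0.649). The ratio of Rnf43 to Znrf3 within a library cancels the library's scaling. It was 4.30, 6.68 and 3.79 in knockout-labelled libraries 1 to 3 and 1.79, 3.32 and 1.45 in WT libraries 1 to 3, so the groups did not overlap. For the log2 ratio the exact permutation p (two-sided) was 0.1, the smallest possible, and p = 0.2 when adjusted over the 2 ratios computed.

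Of the position receptors, Ephb2 had the highest log2 fold change of the 10 and Ephb3 one near 0. Ephb2 was at 3.65, 8.46 and 6.20 FPKM in knockout-labelled libraries 1 to 3 and at 3.03, 1.86 and 3.02 FPKM in WT libraries 1 to 3. In FPKM, every knockout-labelled library was above every WT library, with knockout-labelled library 1 the lowest of its group. Group means were 6.11 ± 2.41 FPKM and 2.64 ± 0.675 FPKM in knockout-labelled and WT libraries (SD, n = 3 each), resting on 3534 and 1418 reads. The log2 fold change was 0.93 (SE 0.31, 95% interval 0.18 to 1.67, unadjusted p = 0.0222, adjusted p = 0.431 over all genes in limma). It stayed positive in all 21 alternatives that measured it, between 0.69 and 1.201, and was called in 0 of them.

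Ephb3 was at 1.78, 2.99 and 3.65 FPKM in knockout-labelled libraries 1 to 3 and at 4.44, 0.981 and 4.71 FPKM in WT libraries 1 to 3, with the groups overlapping. Its log2 fold change was -0.09 (SE 0.45, adjusted p = 0.969). The Ephb2 to Ephb3 ratio was 2.05, 2.83 and 1.70 in knockout-labelled libraries 1 to 3 and 0.683, 1.89 and 0.641 in WT libraries 1 to 3. WT library 2 overlapped the knockout-labelled libraries, and the exact two-sided permutation test gave p = 0.2, both alone and adjusted over the 2 ratios. Of the ephrin-B ligands and other EphB receptors, 4 of 6 listed genes were tested and 0 were called by limma, with 0 at an unadjusted p under 0.05. Their median log2 fold change was -0.27. Efnb2, an ephrin-B ligand, was at 22.1, 15.6 and 10.7 FPKM in knockout-labelled libraries and at 14.2, 46.2 and 7.78 FPKM in WT libraries, highest in the WT library where both receptors were lowest.

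**Figure D2:**
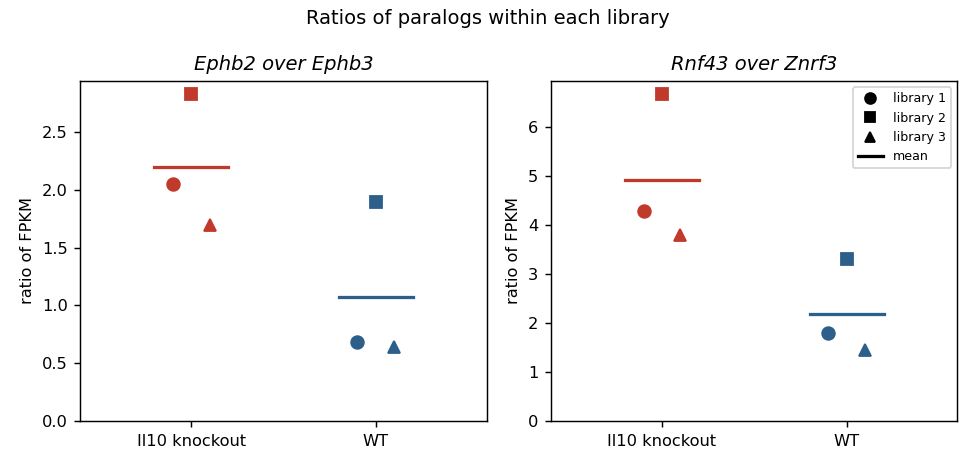
Ratios of FPKM between paralogs within each library, knockout-labelled (red) and WT (blue), with group means as bars. The Rnf43 to Znrf3 ratio is 3.79 or more in knockout-labelled libraries and 3.32 or less in WT, while WT library 2 overlaps for Ephb2 over Ephb3.

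WT library 2 stood apart in these genes and in its list means of epithelial markers. It was the lowest WT library for all 9 genes other than Olfm4, and the lowest of all 6 libraries for 6 of them: Smoc2, Axin2, Rnf43, Sox9, Ephb2 and Ephb3. Among all genes tested, it was the lowest WT library for 36.7% and the lowest of all for 23.7%. The 18 epithelial identity markers, such as Krt8, had their highest list mean in the same library: 8.50, 8.68 and 8.22 in knockout-labelled libraries 1 to 3 and 7.42, 9.03 and 6.70 in WT libraries 1 to 3. So did the 18 differentiated colonocyte markers, at 7.42, 6.13 and 5.79 in knockout-labelled libraries and at 6.18, 8.39 and 5.64 in WT libraries. The summed level of those colonocyte markers was 2704 to 11765 FPKM in knockout-labelled libraries and 3071 to 54250 FPKM in WT, where WT library 2 was the highest. Single colonocyte genes differed, as Slc37a2 was highest in WT library 2 (103 FPKM) and Slc9a3 lowest (9.81 FPKM). The 25 cell cycle genes had their lowest list mean there, with 2.79, 3.13 and 3.38 in knockout-labelled libraries and 3.33, 2.07 and 2.89 in WT libraries. The part of tissue make-up in the values of the crypt genes was not tested.

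Set against the geometric mean of the 18 epithelial markers in each library, Lgr5 and Ascl2 were spread more widely than in FPKM. The geometric mean itself was 358, 407 and 297 FPKM in knockout-labelled libraries 1 to 3 and 168, 523 and 102 FPKM in WT libraries 1 to 3. Lgr5 amounted to 0.409, 0.395 and 1.45 per 1000 units of that mean in knockout-labelled libraries 1 to 3 and to 3.83, 0.297 and 8.55 in WT libraries 1 to 3. Ascl2 amounted to 6.54, 2.02 and 3.44 in knockout-labelled libraries and to 50.1, 1.61 and 48.4 in WT libraries. WT libraries 1 and 3 were thus above every knockout-labelled library for both genes, while WT library 2 was below them. On this scale all 9 genes overlapped between the groups, Ephb2 and Rnf43 included. The wider spread was not particular to Lgr5 and Ascl2, since Rnf43 ran from 4.02 to 22.3 per 1000 units. Of the 9 genes, only Ephb2 had a positive mean log2 difference here (0.41). With the epithelial list mean as a covariate in the limma fit, log2 fold changes were 1.07 for Ephb2 (adjusted p = 0.229) and -0.41 for Ascl2 (adjusted p = 0.678). In that fit 6 of the 7 tested genes were positive, so signs differed between these 2 uses of the epithelial markers.

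**Figure D3:**
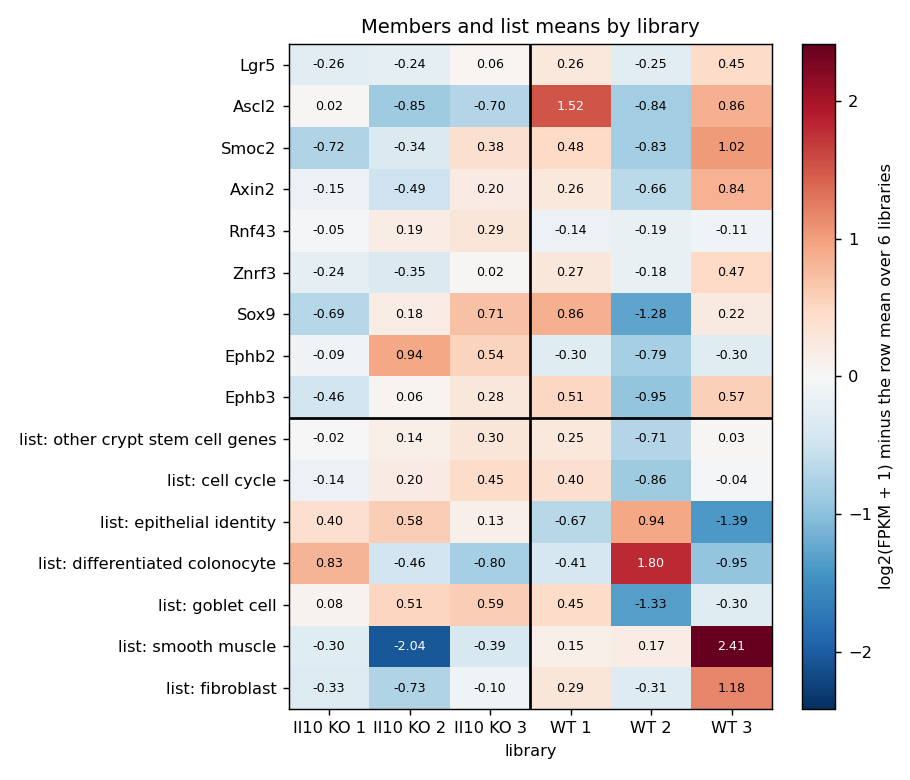
Level of each gene, and mean level of marker lists, in each library as log2(FPKM + 1) minus the row's mean over the 6 libraries, with knockout-labelled libraries on the left. WT library 2 is negative for every crypt gene drawn, for the cell cycle list and for goblet cells, and positive for the epithelial and colonocyte lists.

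WT library 3 was the other extreme. It was the highest of the 6 libraries for 5 genes, Lgr5, Smoc2, Axin2, Znrf3 and Ephb3. It also had the highest smooth muscle list mean, with 4.46, 2.72 and 4.37 in knockout-labelled libraries 1 to 3 and 4.90, 4.93 and 7.17 in WT libraries 1 to 3, and mitochondrial genes took 43.4% of its reads, against 8.61% to 22.0% in the other 5 libraries. Among the knockout-labelled libraries, library 3 was the highest for 7 of 9 genes and library 1 the lowest for 6. Leaving out WT library 2 lowered the log2 fold changes of Ascl2, Smoc2 (-0.98), Axin2 (-0.70), Ephb3 (-0.58) and Sox9 (-0.47), with adjusted p between 0.117 and 0.553, so that 0 of the 7 were called by limma, against 0.0237% of all genes lower and 0.182% higher. Under that fit Ephb2 was at 0.76 (adjusted p = 0.228) and Rnf43 at 0.27 (adjusted p = 0.449).

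**Figure D4:**
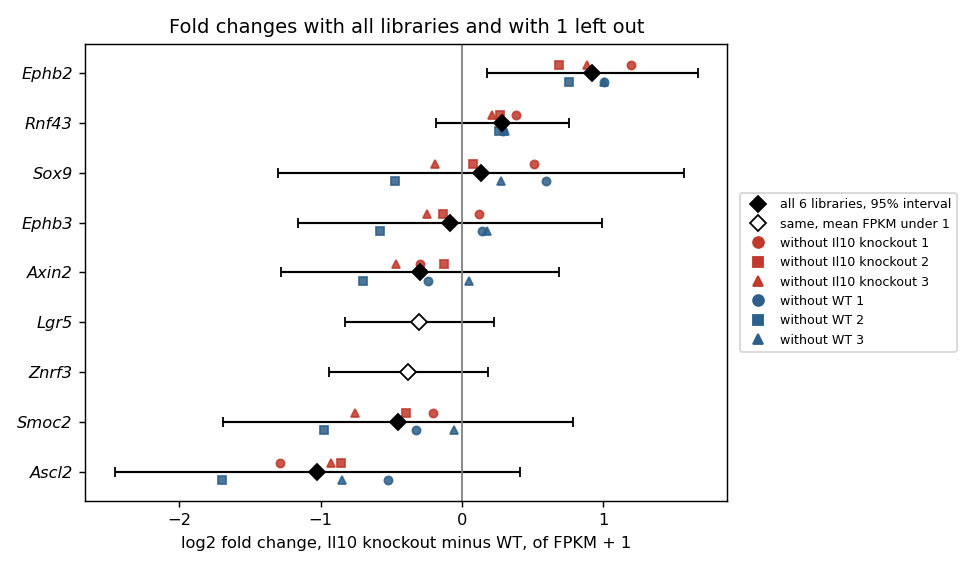
Log2 fold changes (knockout-labelled minus WT, of FPKM + 1) of 9 genes with all 6 libraries (diamonds, 95% intervals; open where the mean is under 1 FPKM) and, for the 7 genes with filled diamonds, with 1 knockout-labelled (red) or WT (blue) library left out. Ephb2 and Rnf43 stay positive and Ascl2 and Smoc2 negative in each of these fits, whereas Sox9, Ephb3 and Axin2 cross 0.

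Other crypt and Wnt genes showed no call of their own. Of 20 other crypt stem cell genes, 13 were tested, 8 had higher and 5 lower values, and the median was 0.03. None was called (limma, 0 genes), and 0 reached an unadjusted p below 0.05. The largest difference among the 3 with the smallest p was that of Aqp4, a water channel, at 111, 90.2 and 42.6 FPKM in knockout-labelled libraries and 79.9, 3.01 and 15.6 FPKM in WT libraries (log2 fold change 2.13, adjusted p = 0.541). Phlda1 had a log2 fold change of 0.95 and Rgmb one of -0.94 (adjusted p = 0.535 and 0.539). Of 18 other Wnt target genes, 6 were tested and 0 were called by limma, with 1 at an unadjusted p under 0.05 in each direction and a median of 0.17. Ccnd1, cyclin D1, was at 5.23, 10.1 and 6.00 FPKM in knockout-labelled libraries and at 3.82, 1.99 and 3.20 FPKM in WT libraries, without overlap (log2 fold change 1.00, adjusted p = 0.372). Nkd1, an inhibitor of Wnt signalling, was at 1.999, 0.209 and 0.592 FPKM in knockout-labelled libraries and at 2.03, 2.76 and 9.57 FPKM in WT libraries, also without overlap (log2 fold change -1.46, adjusted p = 0.459). For Myc, a driver of cell growth, the log2 fold change was 0.73 (adjusted p = 0.748).

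Among Wnt receptors and intracellular components, 24 of 31 were tested, with 12 higher and 12 lower values and a median of -0.02. Limma called 0, and 3 reached an unadjusted p below 0.05. Tcf7l1, a nuclear partner of beta-catenin that mostly represses, was at 3.27, 0.859 and 1.19 FPKM in knockout-labelled libraries and at 19.4, 14.5 and 4.87 FPKM in WT libraries, so the groups did not overlap (log2 fold change -2.25, adjusted p = 0.254). The receptors Fzd1 and Fzd7 had log2 fold changes of 1.00 and -0.82 (adjusted p = 0.455 and 0.475). Of 28 ligands and secreted inhibitors of the niche, 8 were tested, 7 had lower values and the median was -0.82. Limma called 0, and 2 reached an unadjusted p below 0.05. Dkk3 and Frzb, secreted Wnt-related inhibitors, had log2 fold changes of -1.18 and -0.97 (adjusted p = 0.457 and 0.497). Both were highest in WT library 3, where the smooth muscle list mean was also highest, and the part of muscle in these values was not tested. Rspo4 and Wnt3a had 0 reads in every library.

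Of 14 Notch pathway genes, 9 were tested, 8 had lower values, limma called 0, unadjusted p was below 0.05 for 0, and the median was -0.12, with the ligand Dll4 at -0.47 (adjusted p = 0.515). Of the 25 cell cycle genes 24 had higher values, against 54.1% of all genes tested, with a median of 0.32. Limma called 0 of them, and unadjusted p was below 0.05 for 0. Their list means in WT libraries 1 and 3 (3.33 and 2.89) lay within the knockout-labelled range of 2.79 to 3.38. The list mean of WT library 2 (2.07) was below that range, so the direction leans on this library. Rrm2, a subunit of ribonucleotide reductase, stood at 0.58 on the log2 scale (adjusted p = 0.621). Of 12 genes reported in fetal-like repair epithelium, 8 were tested, 7 had higher values and 1 was called: Plet1, a surface protein, at 523, 612 and 217 FPKM in knockout-labelled libraries and at 3.76, 16.0 and 7.23 FPKM in WT libraries (log2 fold change 5.56, adjusted p = 0.0304). With 1 library left out Plet1 was called in 1 of 6 fits, the one without WT library 2, and its adjusted p reached 0.183. Anxa1 and Ly6a had log2 fold changes of 2.56 and 1.51 (adjusted p = 0.205 and 0.507).

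Marker lists of the cells around the crypt base differed in size and direction. The median log2 fold change was 2.30 for 12 tested neutrophil genes, of which 12 had higher values. Of these, 2, S100a8 and S100a9, were called by limma, against 0.182% of all genes tested. An unadjusted p below 0.05 was reached by 11 of the 12, all higher, against 6.14% of all genes in that direction. The median was -2.02 for 18 smooth muscle genes, -1.59 for 17 neuron and glia genes, -0.76 for 13 fibroblast genes and -0.17 for 9 endothelial genes. In these 4 lists limma called 0, with 4, 9, 3 and 2 genes at an unadjusted p below 0.05, all of them lower. For 14 goblet cell genes the median was 0.69, for 18 epithelial identity genes 0.80, for 18 colonocyte genes 0.20 and for 13 T and NK cell genes 0.34. Limma called 0 in each of these 4, with 1, 1, 5 and 0 at an unadjusted p below 0.05. The 5 colonocyte genes among them were 4 higher and 1 lower. Of 5 tested Paneth and small intestinal genes 1 was called, the protease Mmp7, at 4.15, 13.1 and 9.88 FPKM in knockout-labelled libraries and at 0 in the 3 WT libraries (adjusted p = 0.0459). Mmp7 was called in 1 of 6 fits with a library left out, the one without knockout-labelled library 1, whereas S100a8 and S100a9 were called in 6 of 6. The part of these cell types in the values of the crypt genes was not tested.

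The tested genes whose pattern over the 6 libraries lay nearest to that of Lgr5, by the root mean square difference of standardized log2 values, were Rfx7, 1600020E01Rik, Ptbp2, Zfp763 and Col1a2, at 0.0997 to 0.133. Col1a2, a collagen gene of fibroblasts, was at 10.3, 9.32 and 16.0 FPKM in knockout-labelled libraries and at 18.3, 9.89 and 25.9 FPKM in WT libraries. Among the 7 tested crypt and Wnt genes, Smoc2 was the nearest to Lgr5 (0.247, rank 47 of 12668) and Axin2 the second (0.333, rank 177), while Rnf43 (1.40) and Ephb2 (1.41) were the farthest. With 6 libraries many genes share any one pattern, and these distances are a description.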

How the data were processed

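Colon RNA of 6 libraries was analysed, 3 labelled IL10-/- and 3 labelled WT. The authors deposited FPKM values for 54532 genes with gene lengths. Bowtie 0.12.2 and the builds hg38 and mm8 are named, per the submitters' processing notes, with no role given; the counting tool, strand setting and treatment of multi-mapping reads are not stated in the labels or notes. Of gene identifiers found in GENCODE M21, 98.3% had identical coordinates there, so GRCm38 is used. Values times length were whole multiples of 1 step per library (tolerance 0.01) for 100% of values, which gave the reads quoted. Summed over genes, these reads exceeded the library size implied by the step in knockout-labelled library 1 and WT libraries 2 and 3. In WT library 2 they were 15797928 against 13202700. The other libraries were below it, so the sums need not count each read once. Intervals and floors of 3 reads cover counting error only.

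Values were tested as log2(FPKM + 1) where the gene's mean was 1 FPKM or more, with limma 3.58.1 (mean trend, no block) in R 4.3.3. Fold changes on this scale understate those of low genes. Single values used exact permutation tests (scipy 1.17.1). Groups came from sample titles. The chi-square per gene was 60.7 or more for every pair of libraries, so none was the same library sequenced again. It cannot show whether libraries came from the same animal or pool. The 10 genes, the 18 other lists and the tests were chosen with earlier results of these data known. All 10 genes are named; from each other list up to 3 genes with the smallest p could be named. One result under this rule is not reported here. The fit was tested on simulated data. Alternatives were other pseudocounts, filters, scalings, weights, covariates, a replicate block, voom and left-out libraries.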

Additional observations from a re-analysis of the deposited data

How the results depend on the processing

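The count of 23 genes called depended on the settings. It was 4 with no filter, 46 with TPM, 331 with a weight per library, 37 with the epithelial list mean as a covariate, 1 with the smooth muscle list mean, 2 with voom on the recovered reads, 4 without WT libraries 2 and 3, and 4 to 29 with 1 library left out (4, 7, 12 and 5 without knockout-labelled libraries 2 and 3 and WT libraries 1 and 3). The number of the 10 crypt and Wnt genes called was 0 in the main fit and 0 in all alternatives but the weighted one, where it was 1 (Ascl2). Without one library the count of these genes stayed 0. Libraries share replicate numbers. Correlations of deviations from the group means were -0.149, 0.180 and 0.396 for same-numbered libraries, and -0.388 to 0.177 for differently numbered ones. With 3 libraries per group these values can neither show nor exclude a pairing. With the replicate block 7 genes were called and 0 of the 10. The median of all genes was 0.15 with TPM and -0.13 when FPKM were rescaled without mitochondrial genes, against 0.04. The median of the tested crypt genes lay between -0.58 (without WT library 2) and 0.32 (epithelial covariate). Signs turned for 4 genes. Axin2 was at 0.20 with the epithelial and 0.43 with the smooth muscle covariate, and between -0.70 and 0.0497 with 1 library left out (the highest without WT library 3). Ephb3 was at 0.0235 with TPM, 0.43 and 0.25 with these covariates, 0.13 without knockout-labelled library 1, and 0.15 and 0.18 without WT libraries 1 and 3. Smoc2 was at 0.17 and 0.21 with the covariates. Sox9 was at -0.0758 without mitochondrial genes, -0.49 with weights, -0.19 without knockout-labelled library 3, -0.47 without WT library 2 (highest 0.60, without WT library 1) and -0.80 without WT libraries 2 and 3. The causes were not tested. Lgr5 and Znrf3 were below the filter and were fitted only at lower filters, so no library was left out for them.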
